A study of Arabidopsis thaliana with 12 samples.

Results

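The 36 Arabidopsis genes described here are carried under a locus code alone, were dim in wild type, and were higher in every measured toc34 array than in any wild-type array. They were picked from 599 spots whose annotation lists a single gene under a locus code, out of 3439 spots in all. Of these 599 spots, 122 had fewer than 4 values above 0 in a genotype and 46 had a wild-type median of 1 or more, which left 431 eligible spots. On each array the median log2 intensity was subtracted, and a spot was taken when its lowest toc34 value exceeded its highest wild-type value. This held for 37 spots, and AT2G28200 was then left out by name together with AT5G65220 and AT3G13120, whose genotypes overlapped. All 36 genes are protein coding in RefSeq and their symbol there is still the locus code, but they are not all uncharacterised. RefSeq lists the name CKA4 for AT2G23070, and 20 of the 36 are placed below in a known protein family from general knowledge.

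The study set total RNA of 6 toc34 samples against that of 6 wild-type samples, all of ecotype Columbia 0, with 1 array for each sample. The labels describe the mutant as impaired in protein import at the outer envelope of the chloroplast, and they give no allele, tissue, age or growth condition. Whether the samples are separate plants is not stated either, and the spread between arrays may be technical. TOC34 is a GTP-binding receptor in the outer envelope that takes up precursor proteins made in the cytosol, and Arabidopsis has a close paralog, TOC33. Most chloroplast proteins are encoded in the nucleus and enter through this machinery, and plants with impaired import are known to change the transcripts of many nuclear genes. Genes carried only under a locus code are a mixed group, with enzymes, RNA-binding proteins and proteins of no known function side by side.

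The summed intensity per array ran from 1988 to 3553 and the array medians of log2 intensity spanned 0.50, so levels are given as deposited and differences after quantile normalization. On the lists of chloroplast import, root, flower and seed genes, 0 genes had a spot of their own. The mutated gene and the tissue were therefore not checked against the labels. Of 14 photosynthesis genes 8 were tested, of which 3 fell and 0 rose (limma, Benjamini-Hochberg adjusted p under 0.05), with a median log2 difference of -0.54. Calls made up 36.0% of the tested spots, with 17.2% higher and 18.9% lower in toc34. The summed intensity of the 8 photosynthesis genes ran from 81.0 to 120.0 in wild type and from 38.3 to 52.7 in toc34. The brightest genes weigh most in such a sum. In RNA of whole samples, fewer cells of a type and less RNA per cell cannot be told apart, and the part of either in the values below was not tested.

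Because the genes were chosen for not overlapping on these same arrays, their differences are a description and carry no p. Fitted with limma over all 2768 spots that had at least 4 values above 0 in each genotype, the log2 difference, toc34 minus wild type, ran from 0.58 to 4.30 with a median of 1.28. The median over all tested spots was -0.05. The difference was more than 2-fold in 29 of the 36, and 13.2% of all tested spots were as much higher in toc34. All 36 were called higher by limma, against 17.2% of all tested spots, a count that follows from the way they were picked. Among the 431 eligible spots, 8.58% were fully higher and 49, or 11.4%, fully lower. Fully higher spots made up 10.2% of the other tested spots with a wild-type median under 1, so the share among locus-code genes lay near that of other dim spots.

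**Figure D1:**
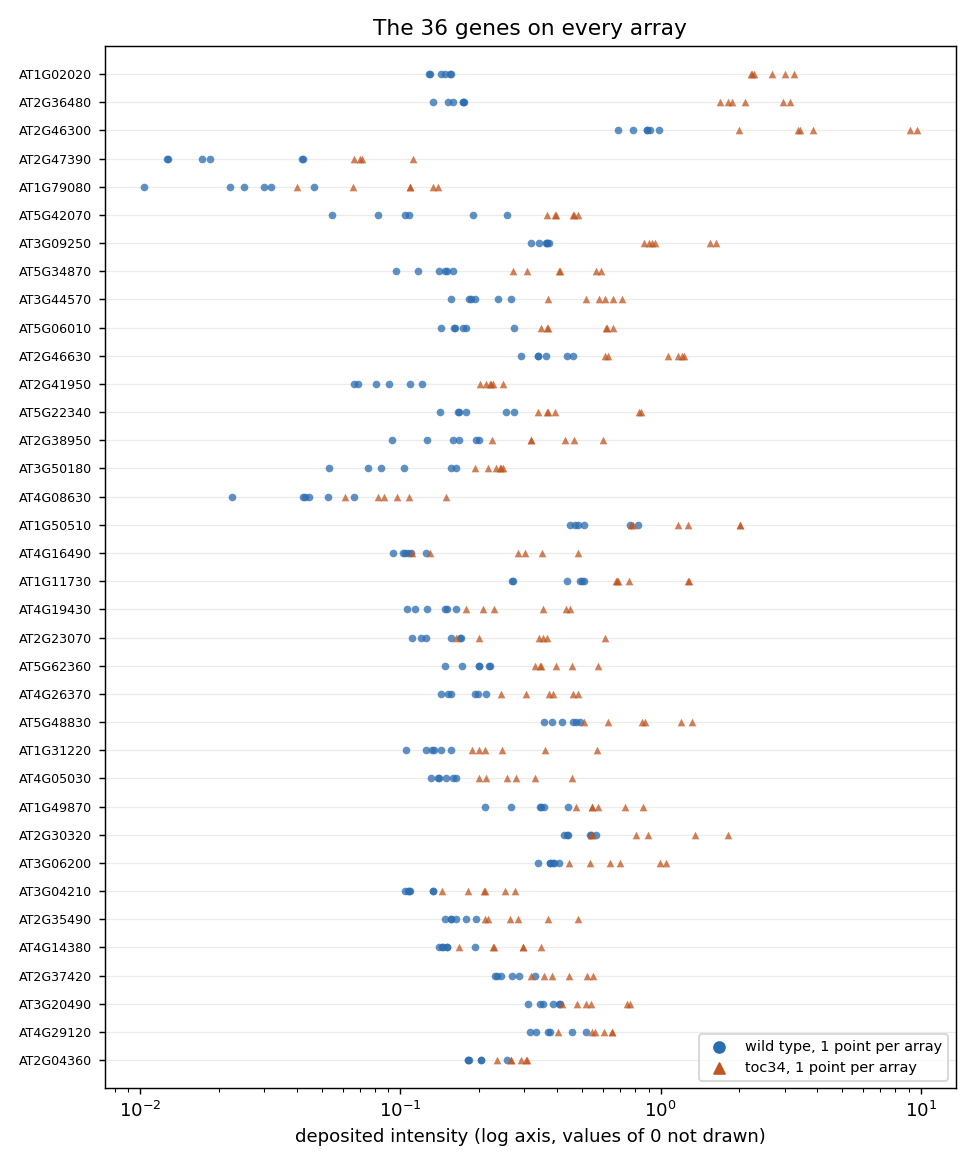
Deposited intensity (x axis, log scale) of each of the 36 genes (y axis, ordered by fitted log2 difference), with 1 circle per wild-type array and 1 triangle per toc34 array. AT1G02020 and AT2G36480 stand well clear of their wild-type values, while the genes at the bottom are separated narrowly or overlap before centring.

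AT1G02020 and AT2G36480 stood apart from the other 34 genes. AT1G02020, of the nitroreductase family of flavin-dependent enzymes, had a lowest, median and highest wild-type intensity of 0.129, 0.146 and 0.156, and in toc34 of 2.23, 2.49 and 3.26. AT2G36480, a relative of the Pcf11 factor of pre-mRNA cleavage, had 0.133, 0.167 and 0.175 in wild type against 1.69, 1.99 and 3.15 in toc34. Both were thus below the middle of the measured spots in wild type, at mean percentiles of 38.5 and 42.5, and among the bright ones in toc34, at 94.9 and 94.4. Their log2 differences were 4.30 (SE 0.24) and 3.89 (SE 0.13). The gap, the lowest toc34 value minus the highest wild-type value on the centred log2 scale, was 3.62 and 3.53, and the next in order had 1.40. The arrays of AT2G36480 were as tight in toc34 as in wild type, with an SD of 0.17 on the log2 scale in both, whereas AT1G02020 had 0.41 in toc34 and 0.15 in wild type.

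Further members have known roles with RNA or chromatin. AT1G79080, of the pentatricopeptide repeat family that binds organelle transcripts, was very dim, with a lowest, median and highest value of 0.0103, 0.0274 and 0.0466 in wild type against 0.0401, 0.109 and 0.140 in toc34. Its deposited values overlapped, its gap after centring was 0.05, and its difference of 2.17 (SE 0.39) became 1.53 when an offset of 0.0216 was added before the logarithm. AT4G26370, which carries the NusB domain of bacterial antitermination factors, had a difference of 1.16 (SE 0.19), from 0.176 ± 0.0294 in wild type to 0.375 ± 0.0905 in toc34 (SD, n = 6 arrays each). AT2G30320, of the pseudouridine synthase family that modifies RNA bases, went from 0.491 ± 0.0625 to 0.993 ± 0.501. Its 2 highest toc34 values, 1.36 and 1.81, came from replicates 3 and 4, the arrays with the highest sums in that genotype. They were also its highest after centring, at 2.62 and 3.02, and the reason was not tested. Its lowest toc34 value, 0.540, lay within the wild-type range before centring. AT2G38950, a jumonji-domain protein of the histone demethylase class, had a difference of 1.39 (SE 0.23), from 0.157 ± 0.0414 to 0.393 ± 0.133.

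Members that act on nucleotides were moderately higher, by 1.0 to 1.31 on the log2 scale. AT3G06200, a guanylate kinase, had 0.337, 0.381 and 0.407 as its lowest, median and highest value in wild type and 0.445, 0.670 and 1.05 in toc34, a difference of 1.0 (SE 0.24). AT1G31220, the glycinamide ribonucleotide formyltransferase of purine synthesis, went from 0.133 ± 0.0174 to 0.296 ± 0.149 (SD, n = 6 arrays each). AT1G50510, a glycosylase that breaks down pseudouridine monophosphate, went from 0.582 ± 0.165 to 1.34 ± 0.566. Before centring its lowest toc34 value, 0.770, lay below its highest wild-type value, 0.820, on replicate 4. After centring that array was still the highest in wild type, at 1.96, and the lowest toc34 value was 2.17.

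Plastid proteins among the 36 included the dimmest member. AT2G47390, a glutamyl endopeptidase of the chloroplast stroma, was listed at 0 on toc34 replicates 3 and 5, and these were taken as missing. The other 4 toc34 arrays had 0.0698, 0.0665, 0.0714 and 0.112, and the wild-type arrays ran from 0.0127 to 0.0422 with a median of 0.0179. The genotypes did not overlap among values above 0, but 2 toc34 arrays were lower than every wild-type array if the zeros are read as levels. Its difference of 2.20 (SE 0.44) is therefore that of 4 arrays, and it was 0.65 with the offset, which keeps the zeros. CKA4 (AT2G23070), the plastid catalytic subunit of casein kinase II, went from 0.142 ± 0.0265 to 0.339 ± 0.158 (SD, n = 6 arrays each). Its toc34 values on replicates 5 and 6, 0.163 and 0.200, lay inside and just above the wild-type range of 0.111 to 0.171, so that the genotypes overlapped before centring. The other 4 were at 0.340 or more. AT2G35490, of the fibrillin family of plastid lipid-associated proteins, had a difference of 0.91 (SE 0.21).

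At the cell surface and wall, AT2G46300 was the brightest member in both genotypes. It belongs to a family of hydroxyproline-rich glycoproteins related to late embryogenesis abundant proteins. Its lowest, median and highest intensities were 0.687, 0.887 and 0.989 in wild type against 2.0, 3.64 and 9.67 in toc34. Replicates 1 and 2 of toc34 were far above the others, at 9.14 and 9.67 against 3.85 at most, and its SD in toc34 on the log2 scale was 0.94, the largest of the 36. AT5G62360, an inhibitor of the invertase and pectin methylesterase class, had 0.148, 0.200 and 0.222 in wild type against 0.330, 0.371 and 0.574 in toc34, a difference of 1.17 (SE 0.22). AT1G11730, of the galactosyltransferase family that builds glycans in the Golgi, went from 0.413 ± 0.114 to 0.896 ± 0.305 (SD, n = 6 arrays each).

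The 6 genes of other known families include AT1G02020, given above. AT3G09250, which has the fold of nuclear transport factor 2, was clearly separated. Its lowest, median and highest values were 0.318, 0.364 and 0.372 in wild type against 0.861, 0.941 and 1.64 in toc34, a difference of 1.76 (SE 0.14) with a gap of 1.35. AT4G16490, an armadillo-repeat protein, was uneven in toc34, with 0.111 and 0.130 on replicates 5 and 6 and 0.284 to 0.483 on the other 4, against 0.0935 to 0.125 in wild type. The smaller differences were those of AT3G04210, a disease resistance protein of the TIR class (0.99, SE 0.19), AT2G37420, a kinesin motor (0.77, SE 0.21), and AT4G29120, a dehydrogenase of the 6-phosphogluconate type (0.68, SE 0.17).

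For the other 16 genes no role is given here, and their log2 differences ran from 0.58 to 1.98. AT5G42070 had a lowest, median and highest intensity of 0.0547, 0.106 and 0.258 in wild type against 0.367, 0.430 and 0.480 in toc34, so that it spread widely in wild type and little in toc34. AT5G34870 had 0.0964, 0.145 and 0.160 against 0.271, 0.408 and 0.589 in toc34. AT3G44570 had 0.157, 0.191 and 0.266 against 0.371, 0.597 and 0.711. None of these 3 overlapped before centring either, and their differences were 1.98 (SE 0.37), 1.74 (SE 0.19) and 1.61 (SE 0.18).

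AT5G06010 had 0.143, 0.168 and 0.274 in wild type against 0.346, 0.495 and 0.657 in toc34 (lowest, median and highest). AT2G46630 had 0.292, 0.350 and 0.460 in wild type against 0.613, 1.12 and 1.23 in toc34, where replicates 5 and 6 were the low ones. Both genes were clear of overlap before centring as well, with differences of 1.54 (SE 0.23) and 1.52 (SE 0.18). AT5G22340 had 0.142, 0.174 and 0.273 against 0.339, 0.381 and 0.843 in toc34. AT2G41950 had 0.0663, 0.0855 and 0.121 against 0.203, 0.222 and 0.249. These 2 had equal differences of 1.47 (SE 0.20 and 0.18). AT5G22340 was highest on replicates 3 and 4 in both genotypes. These arrays had the highest sums in each, but they were also its highest after centring, at 1.89 and 1.92 in toc34. The reason was not tested. AT2G41950 was nearly level across toc34.

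AT3G50180 had a difference of 1.35 (SE 0.27), and its wild-type arrays varied more (SD 0.64 on the log2 scale) than its toc34 arrays (SD 0.18). AT4G08630 was among the dim ones, with 0.0225, 0.0439 and 0.0663 in wild type against 0.0612, 0.0917 and 0.150 in toc34, and overlapped before centring. The remaining 7 without a role were AT4G19430 (log2 difference 1.25), AT5G48830 (1.15), AT4G05030 (1.06), AT1G49870 (1.05), AT4G14380 (0.83), AT3G20490 (0.76) and AT2G04360 (0.58). Their intensities lay between 0.106 and 0.490 in wild type and between 0.168 and 1.32 in toc34.

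**Figure D2:**
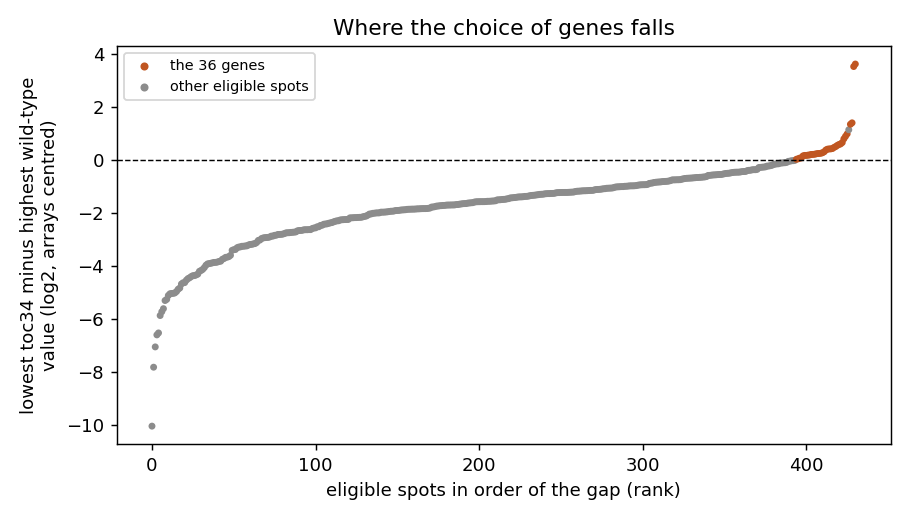
Gap between genotypes (y axis, lowest toc34 minus highest wild-type log2 value after centring each array) for the 431 eligible spots in rank order (x axis). The 36 genes lie above 0, with AT1G02020 and AT2G36480 far above the rest and no break in the curve at 0. The grey spot above 0 is AT2G28200.

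The edge of the choice fell within a continuous run of spots. Of the 36 genes, 4 had a gap over 1 and 4 a gap under 0.1, and the median gap was 0.34. Just inside were AT4G29120 (gap 0.03), AT1G79080 (0.05), AT1G49870 (0.07), AT2G37420 (0.08) and AT2G04360 (0.16). Just outside were AT2G25640 (-0.01), AT5G66530 (-0.02), AT3G50880 (-0.03), AT1G18290 (-0.04) and AT4G02040 (-0.05). The excluded AT2G25640 had a fitted difference of 1.47, larger than the 0.68 of AT4G29120. Its lowest toc34 value after centring was 1.24, on replicate 5, and its highest wild-type value was 1.26. Without centring, 10 of the 36 overlapped between genotypes.

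Among the eligible spots the difference went down as the level in wild type went up. When these were divided by their wild-type median, the 144 dimmest had a median log2 difference of 0.43, the 143 in the middle of -0.03 and the 144 brightest of -0.39. Of the 36 genes, 8 were among the dimmest, 16 in the middle and 12 among the brightest, and of the 49 fully lower spots 0, 6 and 43. Wild-type values set this split and are also subtracted in the difference, so a downward trend is partly built in. Divided by the mean of both genotypes, the medians were 0.19, -0.13 and 0.0, with no steady fall, and the 36 genes fell 3, 9 and 24. The 36 genes sat at a median percentile of 45.2 among the measured spots of an array in wild type and of 74.2 in toc34. AT2G46300, AT1G02020, AT2G36480, AT1G50510 and AT2G46630 had a toc34 median above 1.

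**Figure D3:**
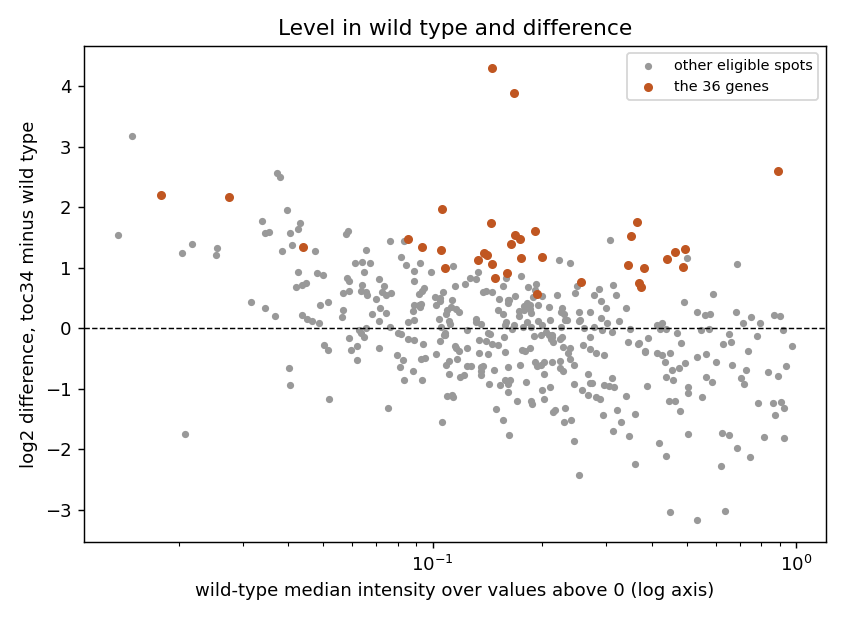
Fitted log2 difference, toc34 minus wild type (y axis), against the wild-type median intensity over values above 0 (x axis, log scale) for the 431 eligible spots. The 36 genes (orange) span the range of wild-type levels from 0.0179 to 0.887, and the other spots (grey) drift downward from left to right. Wild-type values enter both axes, so this drift is partly built in.

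Arrays with neighbouring replicate numbers (1 and 2, 3 and 4, 5 and 6) resembled each other for these genes, as they did over all tested spots. The median absolute log2 difference between 2 toc34 arrays over the 36 genes was 0.14 to 0.26 within such a pair and 0.33 to 0.57 between pairs. In wild type it was 0.17 within every pair and 0.19 to 0.33 between pairs. Over all tested spots it was 0.32 to 0.37 within and 0.55 to 0.61 between pairs in toc34, and 0.15 to 0.20 and 0.32 to 0.38 in wild type. The consensus correlation of neighbouring numbers across spots was 0.535. The labels do not say whether neighbouring numbers are repeats. In either genotype the 6 values of a gene therefore may hold fewer than 6 independent ones. Every SE given here comes from the fit that took all arrays as independent. These SEs would be too small if neighbouring numbers are repeats. The median SD on the log2 scale was 0.22 in wild type and 0.38 in toc34, and the toc34 SD was the larger in 25 of the 36 genes, or 69.4%, against 78.7% of all tested spots. Choosing genes whose genotypes do not overlap favours a small spread within each genotype. The smaller spread of the 36 genes beside all tested spots is therefore partly built in.

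**Figure D4:**
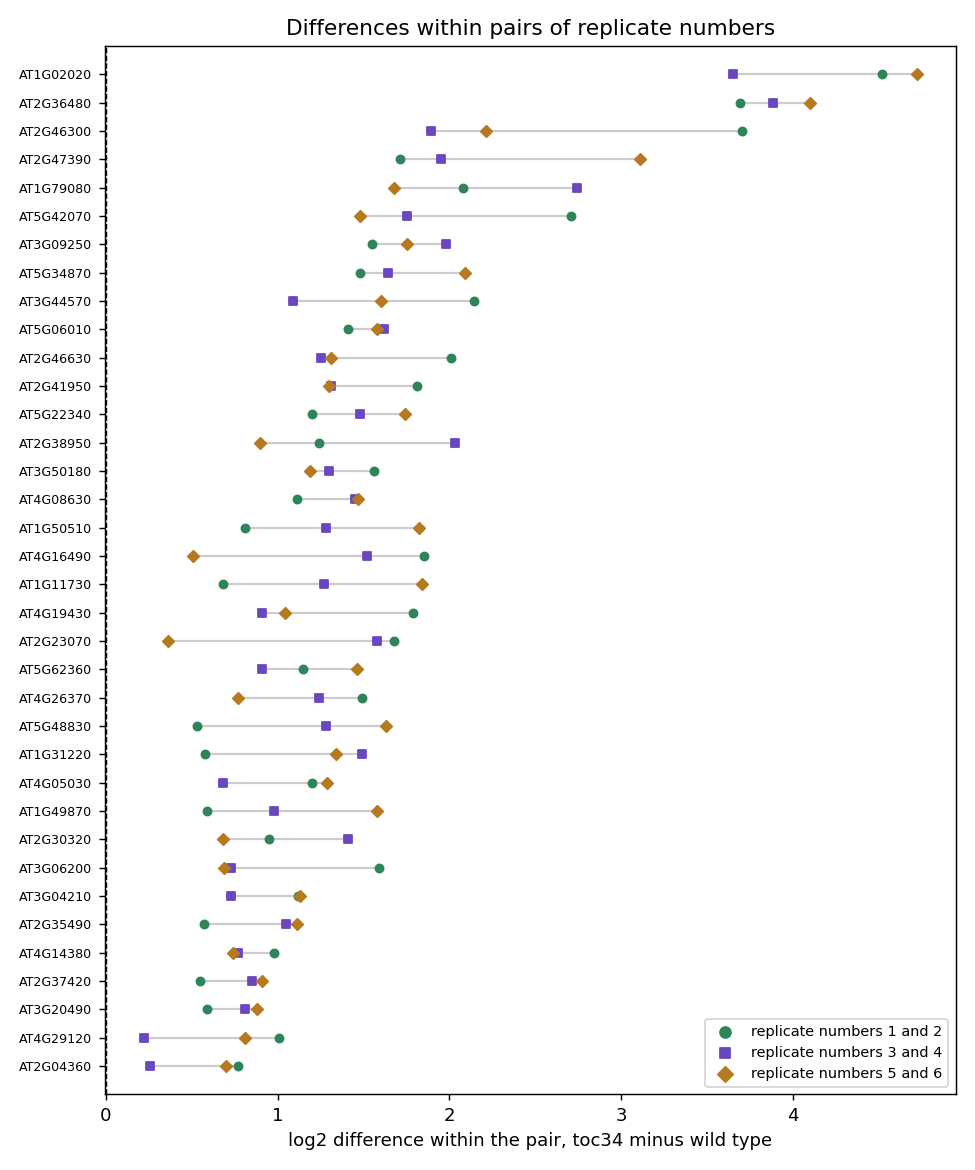
Log2 difference, toc34 minus wild type (x axis), of each of the 36 genes (y axis) computed within replicate numbers 1 and 2 (circles), 3 and 4 (squares) and 5 and 6 (diamonds), with a line over their range. The range is 0.21 for AT5G06010 and 1.81 for AT2G46300, and no pair is the largest throughout.

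Computed within a pair of numbers, the median difference over the 36 genes was 1.32, 1.29 and 1.33 for numbers 1 and 2, 3 and 4, and 5 and 6. Single genes moved far more than this median. The difference was largest within 1 and 2 for 14 genes, within 3 and 4 for 6 and within 5 and 6 for 16, and it ranged over more than 1 on the log2 scale in 12 genes. AT2G46300 had 3.70 within numbers 1 and 2 and 1.89 within 3 and 4. CKA4 (AT2G23070) and AT4G16490 were largest within 1 and 2, at 1.68 and 1.85, and smallest within 5 and 6, at 0.36 and 0.51. AT1G50510, AT1G11730 and AT5G48830 went the other way, with 0.81, 0.68 and 0.53 within 1 and 2 and 1.82, 1.84 and 1.63 within 5 and 6. A difference over 2-fold within all 3 pairs was found for 15 of the 36, and the same count over all tested spots was not made. The pairs are parts of the arrays used for the choice. A higher level within each pair follows from it and is no independent repeat. Which pair is the largest was not tested.

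Chromosome, gene order and spot number were not used in the choice. By locus code 6 lay on chromosome 1, 11 on 2, 6 on 3, 7 on 4 and 6 on 5, so that chromosome 2 held 30.6% of them and 18.1% of the eligible spots, a difference that was not tested. No 2 of them were neighbours in the gene order of RefSeq, the closest being AT2G46300 and AT2G46630, 49 genes apart. Of the tested spots next to theirs by spot number, 4 belong to the 36 themselves, as AT5G06010 beside AT3G50180 and AT4G14380 beside AT1G79080. Of all 51 such spots 6, or 11.8%, were fully higher, beside 10.2% of all tested spots, and their median difference was 0. The 47 outside the 36 genes held 2, or 4.26%, with a median of -0.15. That share leaves out the chosen genes, which the 10.2% keeps.

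AT1G31220, AT2G35490 and AT2G37420 are each also listed on a spot shared with other genes. In that order, the shared spots had differences of -0.61 (SE 0.15, limma adjusted p = 0.00807), -0.37 (SE 0.23, adjusted p = 0.233) and -1.10 (SE 0.26, adjusted p = 0.00563), with 3, 4 and 3 genes on each. All 3 lay in the direction opposite to the gene's own spot, which had been chosen for being higher. By the test 2 of them fell, as did 18.9% of all tested spots. With neighbouring replicate numbers averaged both lost the call (limma adjusted p = 0.111 and 0.0916), and with them as a random block the first did (adjusted p = 0.0745). The signal of a shared spot cannot be assigned to 1 of its genes.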

How the data were processed

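The authors deposited 1 value per spot and array, from 0 to just under 100, taken here as a linear intensity because of its range and skew. Background subtraction, scaling, scanner and software are not given in the sources used here. Gene names come from the platform annotation and RefSeq's TAIR10.1 gene table, which matched all 36 genes. Coordinates are left out, since no build is named. Values of 0 were taken as missing. Log2 intensities were quantile-normalized and genotypes compared with lmFit and eBayes (limma 3.58.1, R 4.3.3) over the 2768 spots with at least 4 values above 0 per genotype, with no covariate. Benjamini-Hochberg adjustment ran over all of them at 0.05. The procedure was tested on simulated data, drawn independently for each array from spots measured on all 12 arrays. That test therefore does not cover the resemblance of neighbouring arrays or values of 0. The number of arrays limits the precision.

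After subtracting genotype means, wild-type and toc34 arrays of the same number correlated at 0.12 to 0.27 across spots. Those of neighbouring numbers correlated at 0.02 to 0.19, and arrays from different pairs of numbers at -0.17 to 0.06. On these values and not the labels, a replicate block was tried as an alternative. The ranges for the same and for neighbouring numbers overlap, so pairing by single number is not settled. The members, lists, roles and alternatives were chosen with earlier results of these data known. By the rule for named genes all 36 are named. Lowest, median and highest values are given for the 10 with the largest gap, the 10 with the largest difference, and those with a far array or a value of 0. The planned search of promoters was not made.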

Additional observations from a re-analysis of the deposited data

Results flagged for a closer look

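Each of 72 groups of arrays, the 36 genes in both genotypes, was examined for 1 array lying apart, by the ratio of its gap to the group's range on the centred log2 scale (critical ratio 0.625 for 6 values). Of these groups 4 had one. A rate of 1 in 20 would give about 3.6, if the values were independent and the genes not chosen by them. Neighbouring arrays resembled each other and the genes were chosen for not overlapping, so the rate by chance is not known here. AT5G06010 had a ratio of 0.698 in wild type, where replicate 6 was at an intensity of 0.274 and the other arrays at 0.178 or less. AT4G08630 had 0.684 in wild type, where replicate 4 was low at 0.0225. AT5G62360 had 0.745 in toc34, where replicate 5 was high at 0.574. AT3G06200 had 0.743 in wild type, where replicate 3 was low at 0.337. The log2 differences of these genes without that array were 1.69, 1.17, 1.01 and 0.93.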

How the results depend on the processing

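Applied otherwise, the rule for the 36 genes gave 40 genes on quantile-normalized values (35 of them shared), 27 on the deposited scale (26 shared), 44 with 2 values per genotype or with no limit on the wild-type median (all 36 shared in both), and 72 with neighbouring numbers averaged, where 3 values per genotype overlap less easily. Leaving out 1 array gave 36 to 42, and AT2G47390 was lost without toc34 replicate 1, 2, 4 or 6, which leave it 3 values. The 36 genes' median difference of 1.28 was 1.13 on the deposited scale, where the median of all tested spots was -0.20, and 1.14 with the offset, and 1.24 to 1.32 without 1 array. No gene changed sign in 825 values under the alternatives, a sign fixed by the choice of genes except with zeros kept, and 40 values moved by 1 SD or more, 38 of them within pairs of numbers, which were added after the data were seen. Of all spots 997 were called, 47.6% of them higher. On the deposited scale 36.2% of the calls were higher. The count was 872 to 1001 without 1 array, 381 averaged, 625 with neighbouring numbers as a random block, and 769, 742 and 558 within numbers 1 and 2, 3 and 4, and 5 and 6. The replicate block gave 1010 calls and a median difference of 1.28, and all 36 genes stayed called. Of the 36, the number called higher was 35 with the random block (11.5% of all tested spots), 35 with the offset (14.2%) and 25 averaged (6.76%). Within the pairs it was 25 of 36 (14.9%), 25 of 35 (14.5%) and 19 of 35 (10.8%). AT2G47390 had a wild-type median below the offset of 0.0216.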
